A study of Mus musculus with 4 samples.

Results

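Read-named isoforms of known genes are transcripts that the isoform table of mouse neural stem cells (NSCs) assigned to an Ensembl gene but named after a sequencing read instead of after an Ensembl transcript. They were chosen by their read counts: an isoform with 10 or more reads over the 4 libraries, in a gene with 20 or more reads in each library. This gave 9767 isoforms in 3994 genes, of 18018 read-named isoforms that carried a gene and of 255164 entries in the whole table. The minimums passed 6851 genes, which also held 10666 annotated transcripts and 3152 entries named as variants of an Ensembl transcript. Just inside the read minimum lay 349 isoforms at 10 reads and just outside it 417 at 9 reads, while the gene minimum left out 1974 read-named isoforms with 10 or more reads. The values used in this choice are described without a test. An isoform is called here by its gene's symbol and a letter in the order of its reads, so that Mki67-a is the read-named isoform of Mki67 with the most reads.

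Primary NSCs grown from embryonic neocortex were sequenced as PCR-amplified cDNA on a Nanopore instrument, with 1 library per group. The 4 groups were Tut1f/f cells given an empty lipid nanoparticle (LNP), the control, and 3 groups given LNP with Cre mRNA: cells floxed for Tut1 (Tut1f/f;Cre), for Trp53 (Trp53f/f;Cre) and for both (Tut1f/f;Trp53f/f;Cre, the double library below). All cells were taken 3 days after LNP. The floxed alleles are removed only in cells that take up and translate the Cre mRNA, each library is a bulk sample, and no group controls for Cre mRNA alone.

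Between 2863392 and 4244467 reads per library named a gene. Tut1 held 37 reads in the control, 11 in Tut1f/f;Cre, 14 in Trp53f/f;Cre and 27 in the double library. Trp53 held 175, 67, 10 and 19 reads in the same order. By the study's design Cre removes exon 2 from Tut1 mRNA, and reads counted over the whole gene do not tell whether that exon was lost, so these counts do not check the Tut1 labels. Library names are used below as the labels give them. Neither gene reached the gene minimum, so neither had a read-named isoform in the set. Genes of neural stem cells held between 11812 and 13330 reads per 1000000 gene reads (scaled by edgeR's TMM), neuron markers between 18.9 and 27.5, microglia markers at most 3 reads in a library and endothelium markers none. Oligodendrocyte lineage markers ranged from 316.0 per 1000000 in the control to 666.7 in Trp53f/f;Cre, and their part in the results was not tested. Single genes dominated these sums. Over all libraries, Fabp7 with 135737 reads held most of those of the neural stem cell genes. Olig2 with 5415 and Olig1 with 1046 held most of those of the oligodendrocyte lineage markers. Ribosomal RNA of 1 gene (CT010467.1) took 18.7% of gene reads in the control and between 5.46% and 9.75% in the others, and its part was not tested either.

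In long-read sequencing, a read is compared with the splice junctions and ends of annotated transcripts, and reads that share a structure outside the annotation are commonly collapsed into an isoform named by one of them. A gene can collect such isoforms by true alternative splicing, by other start or polyadenylation sites, by reads that stop before the end of a long transcript, or by reads placed on a copy of the gene. Processed pseudogenes are such copies: spliced mRNA that was copied back into the genome, so that they lack introns and resemble the mRNA of their parent gene. TUT1 is the terminal uridylyltransferase that extends the 3′ end of U6 small nuclear RNA, a core part of the spliceosome.

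The read-named isoforms with the most reads lay on copies of other genes. The sequences of 2 copies are shown because they tell how little separates a copy from its parent. They are from GENCODE transcripts on GRCm38, in lower case, with bases that differ between the 2 genes in capitals. Gm14303, a processed pseudogene that copies Rps29, a protein of the small ribosomal subunit, held the read-named isoform with the most reads of all, Gm14303-a, described below.

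Rpl3-ps1, a copy of the large-subunit gene Rpl3 that lies on chromosome X, was the pseudogene whose share of reads differed most between libraries. Over 1209 aligned coding bases it differs from Rpl3 at 2, and 1 of them, C57A counted from the first base shown, with the base of Rpl3 first, is in the stretch below.
Rpl3-ps1, chrX:13202572-13202811, plus strand: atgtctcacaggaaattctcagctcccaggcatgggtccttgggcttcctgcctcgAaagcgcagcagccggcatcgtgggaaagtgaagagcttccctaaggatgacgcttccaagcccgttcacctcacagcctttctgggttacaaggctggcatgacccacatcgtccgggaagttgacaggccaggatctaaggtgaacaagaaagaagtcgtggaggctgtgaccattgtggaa
Rpl3, bases 81 to 320 of a transcript of the gene at chr15:80077791-80091868, minus strand: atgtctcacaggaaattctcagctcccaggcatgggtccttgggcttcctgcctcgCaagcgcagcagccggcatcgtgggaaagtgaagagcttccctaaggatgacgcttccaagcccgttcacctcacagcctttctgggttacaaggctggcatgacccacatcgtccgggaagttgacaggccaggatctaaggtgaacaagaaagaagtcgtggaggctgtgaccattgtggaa

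Gm6136, a copy of the large-subunit gene Rpl6, differs from it at 4 of 888 aligned coding bases, of which G104A, C159T and G240A (base of Rpl6 first, counted as above) are in the stretch below.
Gm6136, chr1:86909195-86909434, minus strand: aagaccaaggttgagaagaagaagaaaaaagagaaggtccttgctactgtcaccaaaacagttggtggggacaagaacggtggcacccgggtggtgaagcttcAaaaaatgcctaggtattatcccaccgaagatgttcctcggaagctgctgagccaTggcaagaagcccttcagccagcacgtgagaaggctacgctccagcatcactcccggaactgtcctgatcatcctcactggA
Rpl6, bases 322 to 561 of a transcript of the gene at chr5:121204481-121209241, plus strand: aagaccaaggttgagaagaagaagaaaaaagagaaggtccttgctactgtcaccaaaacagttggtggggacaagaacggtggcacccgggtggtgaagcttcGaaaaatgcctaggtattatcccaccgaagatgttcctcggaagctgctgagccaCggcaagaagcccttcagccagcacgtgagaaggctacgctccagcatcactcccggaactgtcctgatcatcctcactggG

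Most read-named isoforms were minor forms with few reads. Their median was 33 reads over the 4 libraries, and 2894 had fewer than 20. Usage is the share of a gene's reads on an isoform, in percent. Its median over the 4 libraries was 4.79%, with 5045 isoforms under 5% and 791 over 50%. Most were seen throughout: 9040 isoforms had reads in 4 libraries, 684 in 3 and 43 in 2. The isoforms at 0 reads in 1 library alone numbered 189 in the control, 194 in Tut1f/f;Cre, 182 in Trp53f/f;Cre and 119 in the double library. A count of 0 allows up to 3 reads, which is between 0.733 and 1.01 per 1000000 gene reads on that scale. Presence in most libraries is in large part fixed by the minimums.

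Of the 3994 genes, 1725 had 1 read-named isoform, 952 had 2 and 1317 had 3 or more. Over 10 were found in 33 genes, of which those named here were picked after their values were seen. Gas5, a noncoding host of small nucleolar RNAs, had the most, 71, yet its leading one took only 3.60% of the gene's reads. Together they held 25.8% of Gas5 reads in the control, 23.6% in Tut1f/f;Cre, 20.7% in Trp53f/f;Cre and 24.3% in the double library. Rpl13a, another snoRNA host that encodes a large-subunit protein, had 41, which held between 33.2% and 35.3% of its reads. Ckb, the brain creatine kinase, had 23 that held between 6.90% and 8.06%. In these genes the many read-named forms together held the minority of the reads. In Pcbp2, an hnRNP-type RNA-binding protein, 19 isoforms together held the majority, 56.4% of 866 reads, with none above 5.54%. Epn2, an adaptor of clathrin-coated pits, had 18, which held 38.9% of its reads in the control, 56.3% in Tut1f/f;Cre, 62.8% in Trp53f/f;Cre and 54.8% in the double library, lowest in the control. The noncoding gene Pvt1 had 18, which held 74.4% of 367 reads.

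Read-named isoforms took 13.0% of gene reads in the control, 15.6% in Tut1f/f;Cre, 16.1% in Trp53f/f;Cre and 15.6% in the double library. The Wilson 95% interval of the double library was 15.6% to 15.7%, and those of the others were as narrow. Such intervals cover counting error only, since PCR copies are not independent molecules and there was no replicate library. The control was the lowest of the 4. Weighting each gene equally brought the libraries closer together, with a mean share of 18.5% in the control and between 18.9% and 19.1% in the others.

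In 975 of the 6851 genes (14.2%), over 50% of the reads of the 4 libraries lay on read-named isoforms, and 885 genes passed 50% in each library. These 975 genes held 70.3% of all reads on read-named isoforms. The share was over 90% in 619 genes and 100% in 311. Just under the limit, between 45% and 50%, lay 60 genes, and 48 lay between 50% and 55%. No read at all was on an Ensembl-named transcript in 367 of the 975. By annotation, 802 were protein coding, 156 pseudogenes and 17 of other kinds.

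Pseudogenes were the class most given to read-named isoforms. Of 179 pseudogenes that passed the minimums, 156 (87.2%) had over 50% of their reads on them, against 802 of 6519 protein-coding genes (12.3%). Pseudogenes held between 42.3% and 47.7% of each library's reads on read-named isoforms. The annotated transcript of 154 of the 156 matched a transcript of another gene at 90% identity or more over at least 80% of its length, with a median identity of 99.7% and full identity in 42. Among the 802 protein-coding genes 20 (2.49%) had such a match, against 161 of the other 5717 protein-coding genes (2.82%). Among the 23 pseudogenes at or under 50%, 19 (82.6%) had one, so that a copy was common to pseudogenes at large. The search set each gene's own longest transcript against the others, and a parent gene whose transcript is longer than its copy can lack a match. For 85 of the 154 the copied gene encodes a cytosolic ribosomal protein, and for 4 it is encoded by mitochondrial DNA.

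The 15 genes with the most reads were of this kind throughout, including the lincRNA Gm10076, a copy of Rpl41, and Gm2000, annotated as protein coding and 99.6% identical to Rpl35 of the large subunit. Gm14303-a had 20804 reads in the control, 20957 in Tut1f/f;Cre, 28525 in Trp53f/f;Cre and 19211 in the double library. Rps29 itself had 3837, 4667, 5342 and 4301 reads, so that between 81.7% and 84.4% of the reads of the pair were on the pseudogene. The read that names Gm14303-a is 350 bases long, the annotated pseudogene 171 and the Rps29 transcript with the most reads 390. Gm10925, at chr1:24613974-24614651, is a nuclear copy of mt-Atp6, a subunit of ATP synthase. It held 48721 reads against 184 on mt-Atp6. Gm28661, at chr1:24614885-24615565, is a copy of mt-Co2, a cytochrome c oxidase subunit, and held 36065 against 39. Reads of this pair of mitochondrial genes were almost all listed under the nuclear copy. Gm29216, a copy of part of mt-Co1, was more even, with 31983 against 36178. Gm4149 (Rpl37a), Rps13-ps2 (Rps13), Rps26-ps1 (Rps26), Gm9843 (Fau), Rpl31-ps8 (Rpl31), Rps6-ps4 (Rps6) and Gm10243 (Rpl35a) held between 22644 and 41683 reads, and Gm10123, a copy of the prolyl isomerase Ppia, held 29167.

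The division of reads between a pseudogene and its parent was similar in the 4 libraries for most pairs. Its median range over the libraries was 3.91 percentage points in the 154 pairs, and it was at most 5 points in 100 of them. In 24 pairs the pseudogene had more reads than the parent. The range passed 10 points in 21 pairs, and those named next were picked after their values were seen. Rpl3-ps1 took 6.96% of the reads of the pair in the control (Wilson 95% interval 6.52% to 7.44%), 6.75% in Tut1f/f;Cre (6.18% to 7.36%), 55.4% in Trp53f/f;Cre (54.3% to 56.4%) and 51.2% in the double library (50.1% to 52.2%). Its reads were 823, 475, 4457 and 4753, and those of Rpl3 were 10994, 6566, 3595 and 4539. Rpl3-ps1 was therefore high in both libraries from cells with floxed Trp53 and low in both without, with no replicate to give the spread.

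The control stood apart in several pairs, in either direction. Tpt1-ps3, identical to Tpt1 (a calcium-binding growth-related protein) over its whole length, took 25.3% of the pair's reads in the control, 59.4% in Tut1f/f;Cre, 56.9% in Trp53f/f;Cre and 45.7% in the double library. Gm6136 took 22.5%, 50.6%, 50.8% and 43.4% of the reads it shares with Rpl6. The control was the lowest in both, while in Gm3219, a copy of Bcl7c with 204 reads, it was the highest, at 71.4% against 42.0%, 46.3% and 44.3%. Gm12715, a copy of the cytoplasmic actin Actg1, took 13.0%, 26%, 33.5% and 12.4%, so that the control and the double library were low and the other libraries high.

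**Figure D1:**
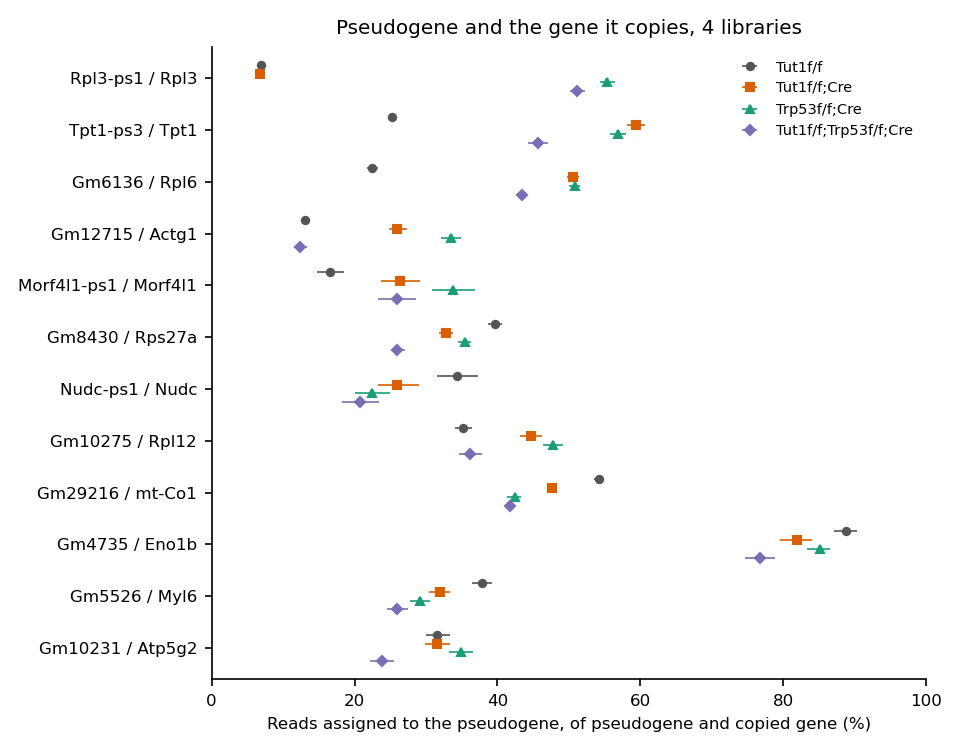
Percentage of reads assigned to a pseudogene among the reads of the pseudogene and of the gene it copies, in each of the 4 libraries, for the 12 pairs with the widest range between libraries among pseudogenes with 1000 or more reads (chosen after the values were seen). Points are single libraries and bars are Wilson 95% intervals, which cover counting error only. Rpl3-ps1 lies near 7% in 2 libraries and between 51.2% and 55.4% in the libraries from Trp53f/f cells.

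Among protein-coding genes, those with most reads on read-named isoforms were more frequent the longer the gene's transcript. The share of protein-coding genes over 50% was 2.38% where the longest annotated transcript had at most 1000 bases and 3.61% between 1000 and 2000. It was 26.7% between 5000 and 6000 bases, 39.0% between 6000 and 8000 and 47.5% above 8000, where 144 of 303 genes passed. The mean share of a gene's reads on read-named isoforms went from 7.34% in the shortest class to 47.7% in the longest. It was nearly equal in the 4 libraries within each class, for example between 47.4% and 48.0% in the longest. The order held at each depth: within the third of genes with the most reads, 2.91% of genes of at most 4000 bases and 38.2% of genes over 6000 bases passed, and within the third with the fewest reads 7.67% and 41.8%.

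**Figure D2:**
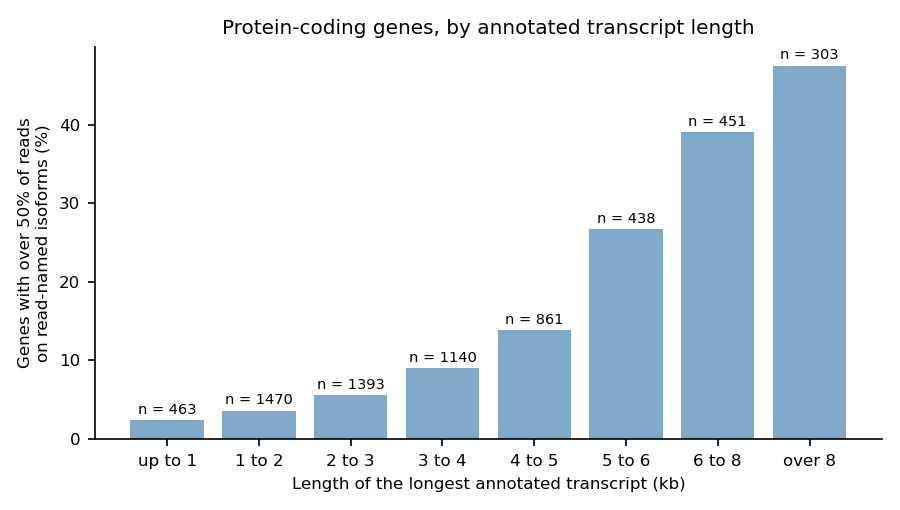
Bars give the percentage of protein-coding genes with over 50% of their reads on read-named isoforms, by the length of the longest annotated transcript in kilobases, with the number of genes (n) above each bar. The percentage goes from 2.38% in the shortest class to 47.5% in the longest.

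The reads that name these isoforms were shorter than the annotated transcripts of coding genes and longer than those of pseudogenes. The name gives the length of the naming read, with a median of 1515 bases (quartiles 1018 and 2206) over 9763 isoforms with an annotated gene. For 9390 isoforms of protein-coding genes the median ratio of the naming read to the longest annotated transcript was 0.717. It was 0.409 in protein-coding genes with most reads on them and 0.783 in the others. In genes over 6000 bases it was 0.249, and the naming read was under 0.5 of the transcript for 85.2% of 1197 isoforms. In pseudogenes the ratio was 1.26, and 152 of 178 naming reads were longer than the annotated pseudogene. Set against the parent's transcript with the most reads, the ratio for 160 of them was 0.862. One naming read stands for all reads collapsed with it, so these lengths describe names and not every read.

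**Figure D3:**
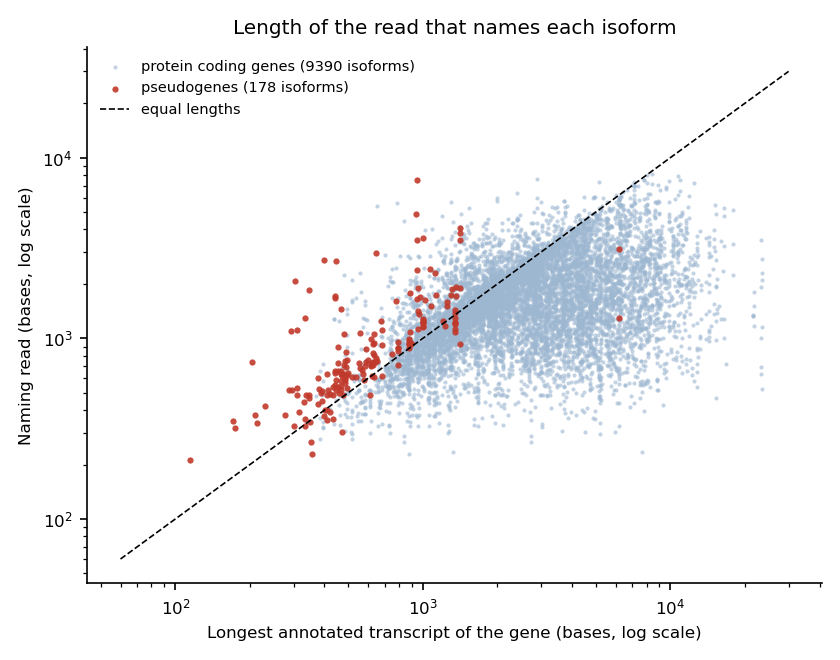
Each point is a read-named isoform, placed by the longest annotated transcript of its gene (horizontal, bases, log scale) and by the length of the read that names it (vertical, bases, log scale), for 9390 isoforms of protein-coding genes and 178 of pseudogenes. Isoforms of pseudogenes lie mostly above the line of equal lengths, with 152 of 178 naming reads longer, and those of long coding genes below it.

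The protein-coding genes with the most reads among those whose own longest transcript had no such match, a group picked after the values were seen, show both a complete lack of Ensembl-named reads and a mixture. Ndufa13, a subunit of respiratory complex I at chr8:69894180-69902558, has 1 annotated transcript here of 1251 bases and had all of its 11332 reads on 1 isoform named by a read of 512 bases. Its reads were 3545 in the control, 2449 in Tut1f/f;Cre, 3024 in Trp53f/f;Cre and 2314 in the double library. Ncan, the brain proteoglycan neurocan, likewise had all of its 5814 reads on 1 isoform, named by a read of 5589 bases against an annotated 7195. Usage cannot be compared in such genes, since no other isoform had reads.

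Oaz1, the ornithine decarboxylase antizyme whose translation needs a programmed frameshift, had 13 read-named isoforms. These held 87.1% of its reads in the control, 86.2% in Tut1f/f;Cre, 87.2% in Trp53f/f;Cre and 87.9% in the double library. Rpl11, a large-subunit protein that is itself the parent of the pseudogene Gm10288 (99.8% identity), was as steady, at 90%, 88.2%, 88.1% and 88.9%. Atp5f1, an ATP synthase subunit, stayed between 98.6% and 99.4%. In these short and abundant genes the 4 libraries lay within 2 points of each other.

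Among long genes, Son and Srrm2 encode large proteins of nuclear speckles, where splicing factors gather. Son, with an annotated transcript of 8731 bases, had 95% of its reads on Son-a, named by a read of 1191 bases. Its reads on read-named isoforms were 693 in the control, 3462 in Tut1f/f;Cre, 2900 in Trp53f/f;Cre and 3080 in the double library. On the same scale of reads per 1000000 gene reads that is 169.2, 1159, 855.2 and 1032, so that the control was the lowest while the share stayed between 96.9% and 99.2%. Prrc2c, a protein of stress granules, and Chd4, the remodeller of the NuRD complex, also had their lowest level in the control, at 82.3 and 75.7 per 1000000 against at least 240.5 and 176.2 in the others. Level was not tested. Tpr, a nuclear pore protein near the 50% limit, had 31.0% of its reads on read-named isoforms in the control, 54.8% in Tut1f/f;Cre, 56.7% in Trp53f/f;Cre and 56.8% in the double library, so that there the share was lowest in the control too.

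Usage of an isoform was compared between libraries on its reads against the rest of its gene by Fisher's exact test, two-sided, over all 22388 isoforms in genes with 2 or more isoforms. Of these, 9552 were read-named. A difference was called at a Benjamini-Hochberg false discovery rate (FDR) under 0.05 with at least 10 percentage points. This compares the reads of 2 libraries, not the conditions. Between Tut1f/f;Cre and the control, 383 read-named isoforms in 322 genes were called, which is 4.01%, beside 6.88% of all isoforms tested. Of the 383, 229 were higher in Tut1f/f;Cre (2.40%, beside 3.43% of all isoforms) and 154 lower (1.61%, beside 3.45%). Between the double library and Trp53f/f;Cre, 35 were called (0.366%, beside 0.880% of all), 14 higher (0.147%, beside 0.375%) and 21 lower (0.220%, beside 0.505%). In both Tut1 comparisons the share called was lower among read-named isoforms than over all isoforms, a description with no test.

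Against the same control, Trp53f/f;Cre had 407 read-named isoforms called (4.26%, beside 7.22% of all) and the double library had 318 (3.33%, beside 5.12%). These comparisons share the control library. Between libraries that both had Cre mRNA calls were fewer, with the most, 35, between the double library and Trp53f/f;Cre as given above. The double library against Tut1f/f;Cre had 1 (0.0105%, beside 0.0804%), which was Ccar1-a, and Tut1f/f;Cre against Trp53f/f;Cre had 2 (0.0209%, beside 0.125%), among them Cenpt-a. Cenpt-a, of a kinetochore protein, took 29.1% in Tut1f/f;Cre and 3.17% in Trp53f/f;Cre, on 16 and 2 reads (FDR = 0.0416). Most calls thus came with the control, which alone lacked Cre mRNA, and Cre mRNA, the genotype and the state of 1 library cannot be told apart in them.

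The share called is given by usage. Among isoforms that held 5% or less of their gene's reads over the 4 libraries, 0.119% of 5054 read-named and 0.507% of 2365 annotated isoforms were called between Tut1f/f;Cre and the control. Between 5% and 20% usage, 5.34% of 3260 read-named and 10.9% of 2507 annotated isoforms were called. Between 20% and 50% usage, 19.8% of 662 read-named and 21.9% of 1434 annotated isoforms were called. Between 50% and 80% the shares were 20.8% of 288 and 16.8% of 1498. The share was thus lower in read-named isoforms up to 20% usage, where most of them lay, and on either side of that of annotated isoforms between 20% and 80%.

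**Figure D4:**
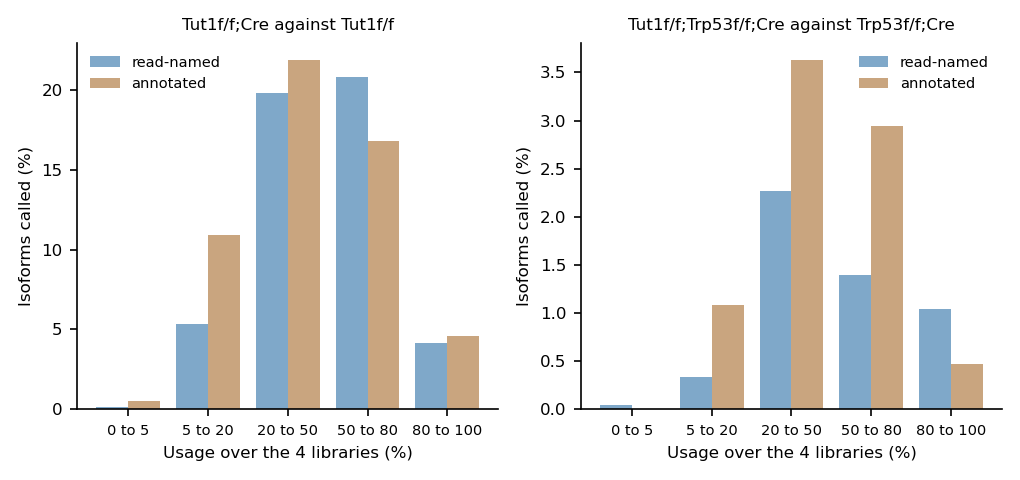
Percentage of isoforms called in each Tut1 comparison, by usage over the 4 libraries (percent of the gene's reads), for read-named and annotated isoforms. Between Tut1f/f;Cre and the control (left) 0.119% of read-named isoforms were called at up to 5% usage and 20.8% between 50% and 80%; in the other comparison (right, another scale) no class passed 4%.

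Among genes with 50 or more reads in each library, the 10 read-named isoforms that differed most between Tut1f/f;Cre and the control lay in genes of varied function, and in each the other Cre mRNA libraries were closer to Tut1f/f;Cre than to the control. 2610008E11Rik-a, of a gene at chr10:79064374-79097600, took 5.75% of its gene's reads in the control (Wilson 95% interval 2.48% to 12.8%), 71.3% in Tut1f/f;Cre (64.9% to 76.9%), 66.8% in Trp53f/f;Cre and 71.9% in the double library. The first difference was 65.5 points (FDR = 4.77e-25). Kdm4a-a, of a lysine demethylase of histone H3 at chr4:118136957-118180043, took 3.55%, 47.5%, 44.9% and 61.9% in the same order, a difference of 44.0 points (FDR = 1.89e-20). Spag9-a, of a scaffold protein of JNK signalling, took 28.3%, 75.9%, 69.2% and 64.0%, a difference of 47.6 points (FDR = 5.25e-10). The intervals of the control and of Tut1f/f;Cre did not overlap in any of these genes, which the choice by that difference makes likely in advance.

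Of these 10, 3 were lower in Tut1f/f;Cre. Brd2-b, of a bromodomain protein that binds acetylated histones, took 64.2% in the control, 27.1% in Tut1f/f;Cre, 28.1% in Trp53f/f;Cre and 34.8% in the double library (FDR = 0.00247). Eif5-a, of a translation initiation factor, took 70.2%, 34.1%, 40.2% and 28.7% (FDR = 2.89e-08). In 2610005L07Rik, a pseudogene, 2 read-named isoforms differed in opposite directions: 2610005L07Rik-b, named by a read of 7550 bases, took 73.1%, 31.6%, 30.6% and 42.7%, and 2610005L07Rik-a, named by a read of 1643 bases, took 21.2%, 59.3%, 63.5% and 49.5%. The remaining ones were Sbf2-a of a myotubularin-related protein (19.4% in the control and 59.9% in Tut1f/f;Cre), Zcchc8-a of a nuclear exosome targeting factor (38.5% and 75.7%) and Exoc3-a of the exocyst (10.1% and 46.6%). In each, the control was the extreme library of the 4. The 10 were ranked by their difference from the control, which favours isoforms where the control stands apart. Its place, and the closeness of the other Cre mRNA libraries to Tut1f/f;Cre, are therefore a description.

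The 10 largest differences between the double library and Trp53f/f;Cre were smaller, between 16.8 and 27.6 points. They too were taken from genes with 50 or more reads in each library. Papola-a, of the canonical poly(A) polymerase at chr12:105784694-105838944, took 25.5% in the control, 22.5% in Tut1f/f;Cre, 40.0% in Trp53f/f;Cre and 18.5% in the double library, a fall of 21.5 points (FDR = 0.000356) in which Trp53f/f;Cre stood apart. Tacc3-a, of a spindle protein, had the same shape at 17.4%, 23.6%, 35.4% and 16.8% (FDR = 0.00165). Kmt2e-a, of a trithorax-type protein, took 36.8%, 42.6%, 50.2% and 33.2% (FDR = 0.0125). In all of these Trp53f/f;Cre was the highest of the 4.
Appbp2-a was the lowest in the double library, at 45.3% against between 60% and 72.2% in the others (FDR = 0.0118). Kif20b-a, of a kinesin of cell division, was the highest there, at 66.9% against between 46.3% and 54.8% (FDR = 0.0189). Dnpep-b, of an aspartyl aminopeptidase, took 33.0% in Trp53f/f;Cre and 15.1% in the double library (FDR = 0.0423). The others of the 10, Cdc23-a, Tor1aip2-a, Tut7-a and Ccar1-b, were also called in the other Tut1 comparison, in the opposite direction.

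Both Tut1 comparisons, which share no library, called 14 read-named isoforms. Of these 6, in 5 genes, went the same way and 8 went opposite ways. Of all 22388 isoforms, 27 (0.121%) were called the same way in both and 54 opposite ways. The 6 were named by this rule and are given without a further test. Mki67 encodes Ki-67, the coat protein of mitotic chromosomes and marker of dividing cells, at chr7:135689784-135716361. Mki67-a took 85.0% of its reads in the control (79.8% to 89.0%), 66.6% in Tut1f/f;Cre (62.7% to 70.3%), 71.6% in Trp53f/f;Cre (68.5% to 74.6%) and 58.4% in the double library (54.0% to 62.6%). Mki67-b took 13.7%, 31.3%, 26.8% and 39.8%. Mki67-a is named by a read of 2280 bases and Mki67-b by a read of 3901, against an annotated 10061. In the first comparison Mki67-a fell by 18.4 points (FDR = 3.82e-06) and in the second by 13.2 (FDR = 0.000307), and Mki67-b rose by 17.6 (FDR = 5.41e-06) and 13.0 (FDR = 0.000307). The shift was also called between Trp53f/f;Cre, not floxed for Tut1, and the control. There Mki67-a differed by -13.3 points (FDR = 0.000605) and Mki67-b by 13.0 (FDR = 0.000600). Together they held nearly all reads of the gene, so that they are 1 change seen from both sides.

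The other 4 isoforms were minor in all libraries and were higher in Tut1f/f;Cre than in the control, and in the double library than in Trp53f/f;Cre. Hspa14-a, of a ribosome-associated Hsp70 protein at chr2:3488850-3512814, took 4.41% in the control, 17.0% in Tut1f/f;Cre, 1.90% in Trp53f/f;Cre and 15.2% in the double library, on 10, 18, 2 and 23 reads. Fnbp1-a, of a membrane-bending protein at chr2:31026206-31142008, took 9.17%, 20.7%, 8.15% and 24.8%, on 20, 28, 19 and 30 reads. Nsd1-b, of a histone H3 methyltransferase at chr13:55209782-55318325, took 5.70%, 16.6%, 8.14% and 20%, on 9, 27, 18 and 34 reads. Ikzf5-a, of a zinc finger protein of the Ikaros family at chr7:131388652-131410521, took 5.15%, 16%, 4.17% and 16.7%, on 7, 24, 8 and 23 reads. Both libraries labelled with floxed Tut1 and Cre mRNA thus lay above both others in each of the 4 genes, with at most 34 reads each and FDRs between 0.00430 and 0.0490. With Holm adjustment in place of the FDR, none of the 4 kept either call (adjusted p of Fisher's exact test between 0.779 and 1), and without ribosomal RNA, mitochondrially encoded and ribosomal protein genes Nsd1-b missed the second call (FDR = 0.0538). With isoforms of 1 or more reads tested as well, Ikzf5-a missed the first call (FDR = 0.0503) and Nsd1-b the second (FDR = 0.0665). At a minimum difference of 20 points all 4 missed both calls. The isoforms were called for these differences, so the grouping is a description.

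Of the 8 isoforms called in opposite ways, Ccar1-a, of a coactivator of cell cycle and apoptosis genes, took 31.1% in the control, 55.1% in Tut1f/f;Cre, 48.6% in Trp53f/f;Cre and 32.3% in the double library, and Ccar1-b took 47.4%, 18.8%, 17.0% and 33.9%. Rbmx-a, of an hnRNP protein, took 38.5%, 17.9%, 12.6% and 28.7%. Tut7-a, of a uridylyltransferase of cytoplasmic RNAs, took 40.1%, 24.2%, 20.7% and 42.3%. With Holm adjustment all 8 missed the call between the double library and Trp53f/f;Cre (adjusted p of Fisher's exact test between 0.152 and 1).

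**Figure D5:**
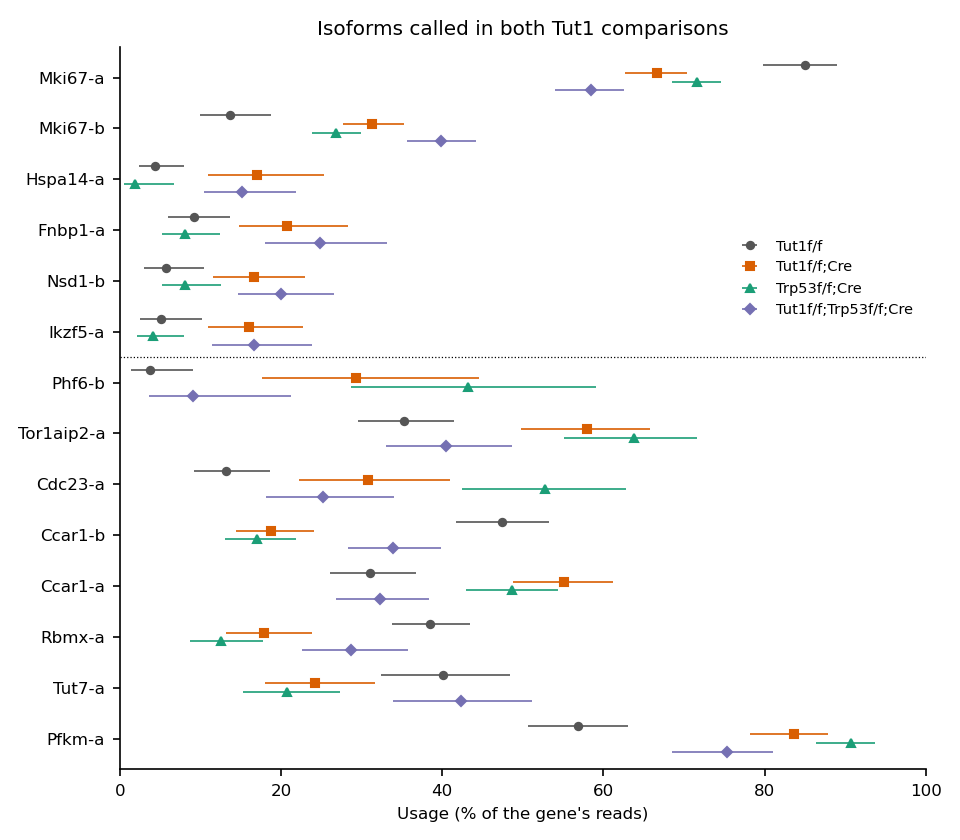
Usage (percent of the gene's reads) of the 14 read-named isoforms called in both Tut1 comparisons, in each of the 4 libraries. Points are single libraries, bars are Wilson 95% intervals for counting error only, and the dotted line separates 6 isoforms called the same way (above) from 8 called opposite ways (below). In Hspa14-a, Fnbp1-a, Nsd1-b and Ikzf5-a, Tut1f/f;Cre and the double library lie between 15.2% and 24.8% and the others between 1.90% and 9.17%.

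With the 4 libraries taken as replicates of a Tut1 status and a Trp53 status, edgeR's usage test (diffSpliceDGE, additive model, 1 residual degree of freedom) called none of 9461 read-named isoforms for either status, and 0% of all 21738. At an unadjusted p under 0.05 there were 117 read-named isoforms for Tut1 status (1.24%, beside 1.02% of all isoforms) and 73 for Trp53 status (0.772%, beside 0.704%). DESeq2 called none either, with 129 and 98 at an unadjusted p under 0.05. The spread that edgeR takes includes differences of gene level, and a fit with the gene's reads as offset, chosen after seeing the data, also called none, with 192 and 141. The edgeR test with Tut1 status alone and no Trp53 term also called none over the 4 libraries, with 180 at an unadjusted p under 0.05 (1.90%, beside 1.59% of all isoforms). Fits with 1 library left out held the tested status alone, so that they differ from the additive model in a term as well as in a library. Without Trp53f/f;Cre such a fit called 43 read-named isoforms for Tut1 status, of 153 among all 21738, and without Tut1f/f;Cre it called 18 for Trp53 status, of 69. In both of these fits the control is the lone library without the deletion and the lone one without Cre mRNA, so that status and Cre mRNA cannot be told apart in them. The lack of calls with all 4 libraries does not show that usage was alike.

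The share of a gene's reads on all of its read-named isoforms together was tested the same way in the 3994 genes. Between Tut1f/f;Cre and the control, 239 genes were called, which is the background itself, 5.98%, with 158 higher in Tut1f/f;Cre (3.96%) and 81 lower (2.03%). Of the 975 genes with most reads on such isoforms, 59 were called, 42 of them higher. Trp53f/f;Cre against the control gave 265 (6.63%) and the double library against the control gave 200 (5.01%). Between the double library and Trp53f/f;Cre, 23 were called (0.576%). After 2610008E11Rik, which has 1 read-named isoform and is given above, the share differed most between Tut1f/f;Cre and the control in Stam, of endosomal sorting (16.1% in the control, 72.5% in Tut1f/f;Cre, 57.9% in Trp53f/f;Cre and 62.0% in the double library, FDR = 8.10e-08), and Gm1673 (12.6%, 66.7%, 52.2% and 56.4%, FDR = 9.03e-29). Lrwd1, a protein of the origin recognition complex, followed with 40.1%, 94.0%, 88.2% and 89.2% (FDR = 1.71e-10). Stam, Gm1673 and Lrwd1 were all lowest in the control, which the ranking by the difference from the control favours.

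Fam149b, Klf12, Gabra2, Cpt1c, Rnf219 and Zkscan3 completed the 10, with differences between 45.1 and 51.7 points on as few as 22 reads of the gene in Tut1f/f;Cre. Between the double library and Trp53f/f;Cre, the largest was in Rfx4, a transcription factor of the neural tube, at 69.6% in the control, 53.7% in Tut1f/f;Cre, 21.1% in Trp53f/f;Cre and 61.1% in the double library (FDR = 0.000236). Tsr3, an enzyme of ribosomal RNA modification, took 21.2%, 46.8%, 25.5% and 55.7% (FDR = 0.00488) and was higher in both libraries labelled with floxed Tut1 and Cre mRNA. Wsb1, a ubiquitin ligase subunit, took 59.8%, 18.8%, 15.6% and 32.8% (FDR = 0.0161), highest in the control. Appbp2, Cdc23, Cops7a, Wrb, Papola, Hspa14 and Nsdhl completed these 10, with absolute differences between 18.4 and 26.8 points.

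Genes of RNA processing were looked at by lists, since U6 acts in splicing. The 12 SR splicing factors with such isoforms had 57 read-named isoforms, of which 3 were called higher and 2 lower in Tut1f/f;Cre than in the control, and 0 between the double library and Trp53f/f;Cre. The median share of reads on read-named isoforms was 24.7% in the 13 SR factors that passed the gene minimum, beside 4.44% over all 6851 genes. Srrm2-a, named by a read of 2202 bases against an annotated 8864, took 24.0% in the control, 57.8% in Tut1f/f;Cre, 58.7% in Trp53f/f;Cre and 59.4% in the double library (FDR = 1.43e-58 for the first difference). Srrm2-b, named by a read of 5744 bases, took 50.1%, 25.1%, 22.4% and 22.3% (FDR = 1.84e-32). Of Srrm2-a and Srrm2-b, the shorter-named form was thus the higher one in the Cre mRNA libraries. Srrm2-c, named by a still shorter read of 810 bases, was lower in them than in the control. The share on all read-named isoforms of Srrm2 stayed between 92.5% and 94.7%.

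Tra2a-a, of a splicing factor that regulates its own mRNA through a poison exon, took 24.2%, 53.5%, 55.2% and 56.1% (FDR = 7.86e-11), and Srsf11-a 3.05%, 17.0%, 17.7% and 9.80% (FDR = 4.64e-05). Srrm2-c, the lower one besides Srrm2-b, took 19.5%, 9.02%, 10.2% and 9.11% (FDR = 1.19e-10). Of 113 isoforms of hnRNP proteins 1 was called higher, Hnrnpab-a (28.9%, 43.9%, 39.6% and 40.1%, FDR = 0.000756), and 1 lower, Hnrnpa3-a (15.6%, 3.45%, 3.98% and 6.97%, FDR = 9.96e-33). Of 81 tested isoforms of core spliceosome proteins 1 was called higher, Sart1-b of a tri-snRNP protein (14.3% of only 21 reads of the gene in the control, then 50%, 48.8% and 42.3%, FDR = 0.0317), and 1 lower, Prpf3-c of U4/U6 snRNP (25.2%, 5.21%, 15.1% and 9.79%, FDR = 0.00194). The lists thus had 5 of 57, 2 of 113 and 2 of 81 called, beside 6.88% of all isoforms, and nothing particular to a list is read from this.

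Some of these genes had hardly a read on an Ensembl-named transcript, and those named here were picked from the lists after their values were seen. Prpf8 and Sart3 of the spliceosome list held 97.9% and 100% of their reads on read-named isoforms. Hnrnpul1 held 99.5%, and the kinase Srpk2, which phosphorylates SR proteins, 98.3%. Of 11 factors of nonsense-mediated decay that passed the minimums, 5 had over 50% there, among them Casc3 and Upf2 at 100%, Smg6 at 90.9% and Upf3b at 82.4%. Smg6 ranged from 98.8% in the control and 96.5% in Tut1f/f;Cre to 83.6% in Trp53f/f;Cre and 75.8% in the double library, of 85, 57, 67 and 33 reads.

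Of the genes whose splicing the study followed, Pnisr-a, of a speckle protein that interacts with PNN, took 27.3% in the control, 12.9% in Tut1f/f;Cre, 17.4% in Trp53f/f;Cre and 19.4% in the double library. It was called lower between Tut1f/f;Cre and the control (FDR = 0.0306) and differed by 2.03 points between the double library and Trp53f/f;Cre (FDR = 1). It was counted in a list of splicing kinases and Pnisr, where 1 of 22 isoforms was called in the first Tut1 comparison, beside 6.88% of all isoforms and 4.01% of the read-named ones, and 0 in the second. Srpk1-a, of another kinase of SR proteins in that list, took 3.67% in the control, 16.7% in Tut1f/f;Cre, 34.0% in Trp53f/f;Cre and 23.5% in the double library, and was called in Trp53f/f;Cre (FDR = 4.00e-07) and in the double library (FDR = 0.00274) against the control. Prpf4b-a took 10.9%, 10.9%, 7.85% and 7.29%, and Rit1-a and Rit1-b rested on 20 and 19 reads. Ube2v2 had no read-named isoform in the set.

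In neural stem cell genes (11 isoforms), snoRNA hosts (105), long noncoding RNAs (14), the unfolded protein response (17), p53 targets (9) and nonsense-mediated decay factors (21 tested), Fisher's exact test called 0 read-named isoforms in either Tut1 comparison. Of all isoforms tested 6.88% were called in the first and 0.880% in the second, and of the read-named ones 4.01% and 0.366%, and nothing is read from counts of 0 in lists of these sizes. Marker genes of neurons, oligodendrocyte lineage, microglia and endothelium had none in the set.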

How the data were processed

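Per the labels, reads were mapped to mm10. The authors deposited 1 table that holds raw counts of reads for each isoform and library. For other long-read libraries the study names minimap2 and FLAIR; the tool behind this table is not given in the sources used here, nor its handling of multiple matches and strand. The deposited names give no position for read-named isoforms, so positions are those of the gene in GENCODE M21 (GRCm38), which held 9763 of the 9767 isoforms. The length of the naming read was taken from the start and end in its name, read as bases kept after trimming. Of the isoforms, 14 carry a read name that names another entry too. Samples were grouped by genotype and treatment labels, 1 library per group.

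The isoforms and gene lists were chosen with earlier results of these data known. Usage was compared by Fisher's exact test (scipy 1.17.1) with Benjamini-Hochberg adjustment over the whole table, and by status with edgeR 4.0.16 (TMM; DESeq2 1.42.0 as an alternative) in R 4.3.3. Intervals are Wilson 95%. Copies were found with megablast (BLAST+ 2.17.0; 90% identity over 80% of each gene's longest transcript). On simulated data Fisher's test and the offset fit recovered the changed isoforms, while edgeR's diffSpliceDGE missed them, so that its lack of calls is no evidence of equal usage. The simulated libraries differed by counting error and by large changes placed in well-covered genes, with no other spread between libraries. Recovery there does not tell how often calls between real single libraries are right. Levels are reads per 1000000 gene reads, TMM-scaled. The genes named were the 15 with the most reads among those over 50%, the isoforms called the same way in both Tut1 comparisons, the 10 largest differences per Tut1 comparison for isoforms (genes with 50 or more reads in each library) and for gene shares, and called isoforms of the lists; others were picked afterwards. Cell type markers were looked up as levels. Alternatives are given in the closing section. Entries that name no gene were counted only as a share. Some items are not reported here.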

Additional observations from a re-analysis of the deposited data

Results flagged for a closer look

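In the 2 Tut1 comparisons 8 read-named isoforms were called in opposite directions, and the difference between the comparisons was not tested, since each rests on 1 library per group. Differences are in percentage points, Tut1f/f;Cre minus the control first and the double library (Tut1f/f;Trp53f/f;Cre) minus Trp53f/f;Cre second. Phf6-b differed by 25.6 and -34.2, Tor1aip2-a by 22.8 and -23.2, Cdc23-a by 17.6 and -27.6, Ccar1-a by 24.0 and -16.3, and Pfkm-a, of muscle phosphofructokinase, by 26.7 and -15.4. Ccar1-b differed by -28.6 and 16.8, Rbmx-a, of an X-linked hnRNP protein, by -20.6 and 16.2, and Tut7-a, of a terminal uridylyltransferase, by -16.0 and 21.6. With Holm adjustment of Fisher's exact test all 8 missed the second call (adjusted p = 0.152 for Ccar1-b, 0.567 for Pfkm-a and 1 for the other 6), and Phf6-b, Tor1aip2-a, Cdc23-a and Tut7-a missed the first as well (adjusted p between 0.295 and 1). With isoforms of 1 or more reads tested as well, Phf6-b missed the second call (FDR = 0.0531) and Tut7-a the first (FDR = 0.0508). At a minimum difference of 20 points 2 of the 8, Phf6-b and Tor1aip2-a, kept both calls.

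Entries that name no gene, which no comparison used, held 30.2% of reads in Tut1f/f;Cre, 28.9% in Trp53f/f;Cre and 27.3% in the double library, above the 17.2% of the control.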

How the results depend on the processing

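No paired analysis was possible because each group has 1 library. The counts of 9767 isoforms and 975 genes stayed within 1.5 times under other read minimums, without each library in turn (8374 to 8945 isoforms and 968 to 1097 genes) and with 95% identity or 50% coverage for copies (176 and 200 genes, beside 177; these were chosen after seeing the data), except that genes with 50 or more reads in each library left 581 genes. With the comparisons ordered as Tut1f/f;Cre against the control, the double library against Trp53f/f;Cre, Trp53f/f;Cre against the control and the double library against the control, the isoforms called became 180, 12, 204 and 145 at 20 points, 761, 93, 816 and 616 with no minimum difference, and 88, 5, 110 and 70 with Holm adjustment. Genes called by share became 132, 8, 136 and 102 at 20 points. For the double library against Tut1f/f;Cre, 11 isoforms were called with no minimum difference and 3 with 20 or more reads or in genes with 50 or more; genes called by share became 0 at 20 points and 2 in genes with 50 or more reads. For Tut1f/f;Cre against Trp53f/f;Cre, isoforms became 1 at 20 points, 11 with no minimum difference, 6 with 20 or more reads, 1 with 1 or more, 5 in genes with 50 or more, 0 with Holm adjustment and 1 without ribosomal RNA, mitochondrially encoded and ribosomal protein genes, and genes 0 at 20 points. The isoforms called the same way in both Tut1 comparisons were 0 at 20 points, and 201 with the control library set against the double library, where the comparisons share that library. Status fits called between 0 and 43 read-named isoforms for Tut1 and between 0 and 18 for Trp53 when a library was left out, 43 without Trp53f/f;Cre and 18 without Tut1f/f;Cre; these fits also dropped the other status term, which with 4 libraries left the Tut1 count at 0, and a lone library of a status is assumed to vary like the others. The share of gene reads on read-named isoforms was 16.3%, 19.2%, 19.5% and 17.9% (library order as in the report) without ribosomal RNA, mitochondrially encoded and ribosomal protein genes, 13.6%, 16.3%, 16.8% and 16.4% with all read-named isoforms, and 18.5%, 19.1%, 18.9% and 19.1% as a mean over genes. The cause of these shifts was not tested, beyond what each limit itself leaves out. Of 54 differences of named isoforms, 31 were no longer called with Holm adjustment, 26 at 20 points, 5 with isoforms of 1 or more reads and 1 without ribosomal genes; none changed sign. Genes near 20 reads give wide intervals.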
